A study of Mus musculus with 9 samples.

Results

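The 10 genes described here serve iron uptake, storage and export and heme breakdown, and were followed in 3T3-L1 cells, a mouse preadipocyte line that stores lipid after hormonal induction. The members were the rows whose symbol was Tfrc, Trf, Fth1, Ftl1, Slc40a1, Slc11a2, Ireb2, Cp, Steap4 or Hmox1, which gave 10 of the 19094 genes listed in at least 1 sample. The study sequenced RNA from 3 stages of differentiation, each in triplicate (n = 3). At day 0 the preadipocytes had grown to near confluence in serum-containing complete medium. Day 4 cells had received induction medium with dexamethasone, IBMX and insulin for 2 days and then maintenance medium with insulin for 2 days. Day 8 cells had spent 4 further days in maintenance medium, so every later sample carries a history of all 3 agents and continued insulin. All stages shared the complete medium, and per the study's methods each sample was a mixture of RNA from pooled cells. Nothing in the labels says that replicates came from separate cultures, so the p-values measure the spread between these samples, which may be technical. Library depth ranged from 18216114 to 20452144 expected counts. A detection floor of 3 counts corresponded to 0.147 to 0.165 CPM, a count scaled to library size.

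Iron reaches most cells bound to transferrin (Trf), which docks on the transferrin receptor (Tfrc) and is taken into endosomes. There ferric iron is reduced by metalloreductases of the STEAP family and passes into the cytosol through the divalent metal transporter DMT1 (Slc11a2). Surplus iron is stored in ferritin, a shell of heavy (Fth1) and light (Ftl1) chains, or leaves the cell through ferroportin (Slc40a1), assisted by the copper ferroxidase ceruloplasmin (Cp). Heme oxygenase 1 (Hmox1) opens the heme ring and sets its iron free. When iron is scarce, iron regulatory proteins, among them IRP2 (Ireb2), bind a hairpin called the iron-responsive element (IRE) and block translation of ferritin and ferroportin mRNA while stabilizing Tfrc mRNA. That control acts partly on translation, which RNA levels do not show.

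The IRE hairpins are shown because they are the sequence feature that joins Tfrc, Fth1, Ftl1 and Slc40a1. GENCODE vM21 transcripts (GRCm38) that match the RefSeq transcripts named in the files were searched on the sense strand for a C, any 5 stem bases, the loop CAGTGN and 5 bases that pair with the stem, with G-T pairs allowed. The search found 1 hairpin in the 5′ UTR of Fth1, 1 in that of Ftl1 and 1 in that of Slc40a1, and 4 in the 3′ UTR of Tfrc. Such a match was held by 0.146% of the 21181 coding genes with an annotated 5′ UTR and by 0.68% of the 21166 with an annotated 3′ UTR. No match was found for the other members, which says only that these letters with this pairing are not in their transcripts. In the sequences below, read 5′ to 3′ on the transcript as DNA letters, capitals mark the loop of each hairpin.
Fth1, 5′ UTR, chr19:9982732-9982761, plus strand: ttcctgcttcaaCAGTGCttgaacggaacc
Ftl1, 5′ UTR, chr7:45459778-45459807, minus strand: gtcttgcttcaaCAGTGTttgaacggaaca
Slc40a1, 5′ UTR, chr1:45925464-45925493, minus strand: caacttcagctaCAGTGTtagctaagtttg
Tfrc, 3′ UTR site 1, chr16:32631219-32631248, plus strand: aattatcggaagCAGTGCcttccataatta
Tfrc, 3′ UTR site 2, chr16:32631598-32631627, plus strand: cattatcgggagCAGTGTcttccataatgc
Tfrc, 3′ UTR site 3, chr16:32631663-32631692, plus strand: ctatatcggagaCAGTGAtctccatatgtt
Tfrc, 3′ UTR site 4, chr16:32631710-32631739, plus strand: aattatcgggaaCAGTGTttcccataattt
The mRNAs that carry these hairpins did not share one course in the counts below. From day 0 to day 4 Tfrc and Fth1 rose, Slc40a1 fell and Ftl1 had an adjusted p of 0.229.

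The members spanned a wide range of levels, compared here on FPKM, fragment counts scaled by the authors to gene length and sequencing depth. The ferritin chains were far above the others at every stage. Among all listed genes ranked by FPKM, Fth1 held rank 2 at day 0, 1 at day 4 and 3 at day 8, and Ftl1 held ranks 3, 4 and 5. The share of all counts that fell on both ferritin genes was 0.643 to 0.677% before induction, 0.776 to 0.817% in the day 4 samples and 0.657 to 0.702% in those of day 8. They held between 88.2 and 93.8% of all counts of the 10 members. Hmox1 was the next member at every stage. Its FPKM (mean ± SD, n = 3, as for all such values) was 185 ± 3.92 in preadipocytes, 132 ± 8.16 on day 4 and 334 ± 31.4 on day 8. At day 0 the order then ran Slc11a2, Ireb2, Cp, Slc40a1, Tfrc, Trf and Steap4. At day 4 it ran Cp, Slc11a2, Ireb2, Tfrc, Steap4, Slc40a1 and Trf, and at day 8 Slc11a2, Cp, Ireb2, Tfrc, Slc40a1, Steap4 and Trf. Neighbours in these orders did not overlap between replicates, except Trf and Steap4 at day 0 and Steap4 and Trf at day 8.

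**Figure D1:**
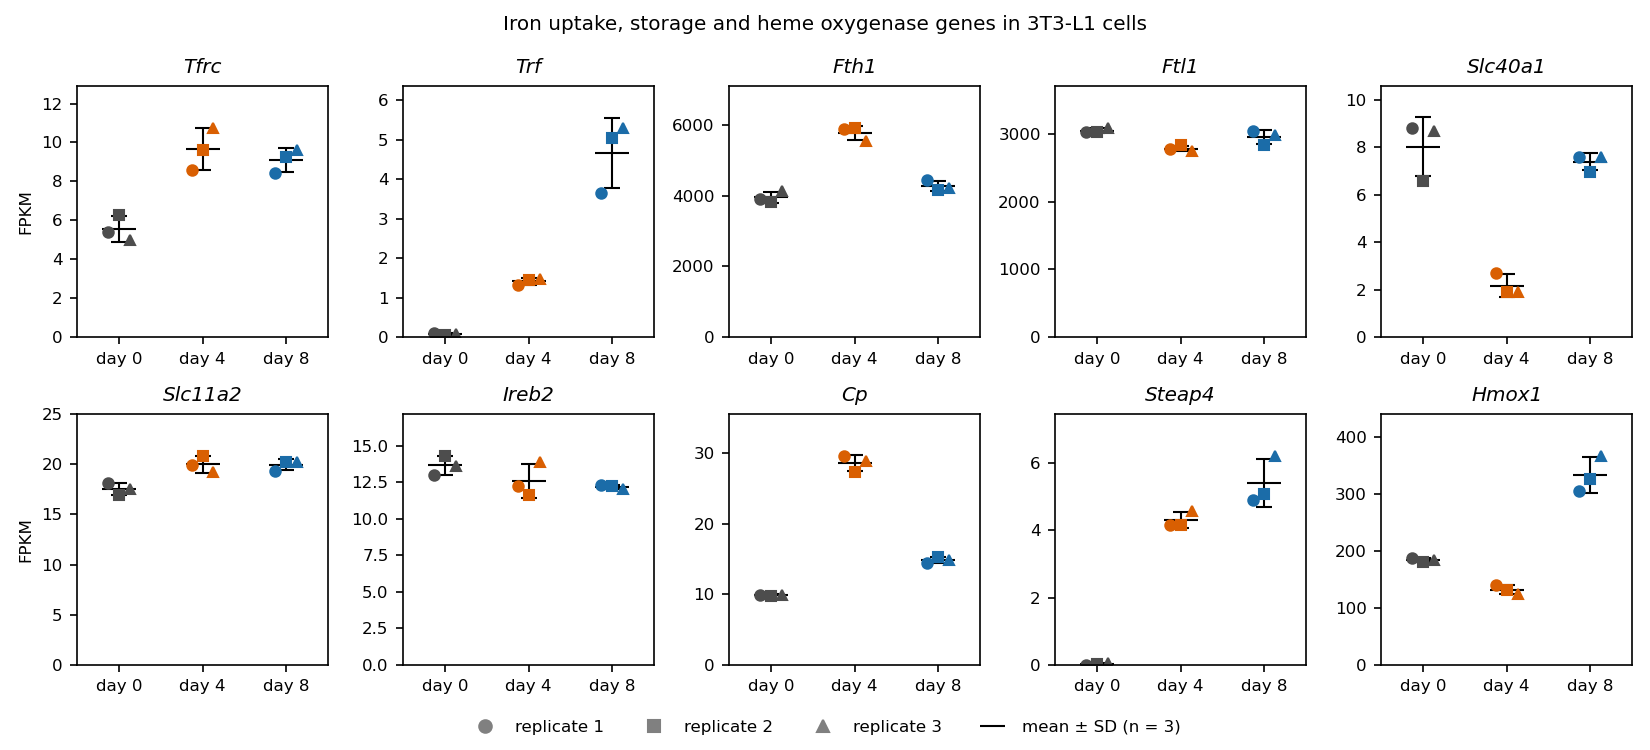
FPKM of each member in every sample at day 0, day 4 and day 8, with replicates as symbols and bars for the mean ± SD (n = 3). Trf and Steap4 start near 0, Cp and Fth1 are highest at day 4, Slc40a1 is lowest at day 4, and Hmox1 is highest at day 8.

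Changes between stages were tested across 13154 genes with edgeR's quasi-likelihood F-test, and a gene counted as called when its Benjamini-Hochberg adjusted p was under 0.05 and its level changed more than 2-fold. The words rose and fell are used where the adjusted p alone was under 0.05. All 10 members passed the filter on low counts, but Trf and Steap4 did so only through their later stages and so had to differ from day 0. Nothing is read from the counts and medians of the members against day 0 for that reason. When at least 10 counts in every sample were required, both were not tested, 1 member (Cp) was called higher early and 0 over the whole process. Of all 11799 genes tested with that filter, 831 were called higher early and 913 over the whole process. In the early phase (day 4 against day 0), Trf, Steap4 and Cp were called higher and Slc40a1 lower. Of all tested genes, 9.77% were called higher and 7.98% lower, or 17.8% in all. By the adjusted p of edgeR alone, 6 members were higher and 2 lower, beside 35.5% and 33.7% of all genes, or 69.2% in all. In the late phase (day 8 against day 4), Trf, Slc40a1 and Hmox1 were called higher and 0 members lower, against 4.24% and 2.81% of all genes, or 7.05% in all. By the adjusted p alone 5 members were higher and 2 (Fth1 and Cp) lower, against 22.5% and 22.7%, or 45.3% in all. Over the whole process (day 8 against day 0), Trf and Steap4 were called higher and 0 members lower, against 10.3% and 7.7% of all genes, or 18.0% in all. By the adjusted p alone 7 members were higher and 0 lower, against 34.8% and 36.2%, or 71.0% in all. The median log2 fold change of the members was 0.43 early, 0.0818 late and 0.477 over the whole process, beside 0.0164, -0.00765 and -0.0178 for all tested genes. The 3 comparisons share samples, since day 4 enters both phases and day 0 and day 8 enter the whole process as well.

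**Figure D2:**
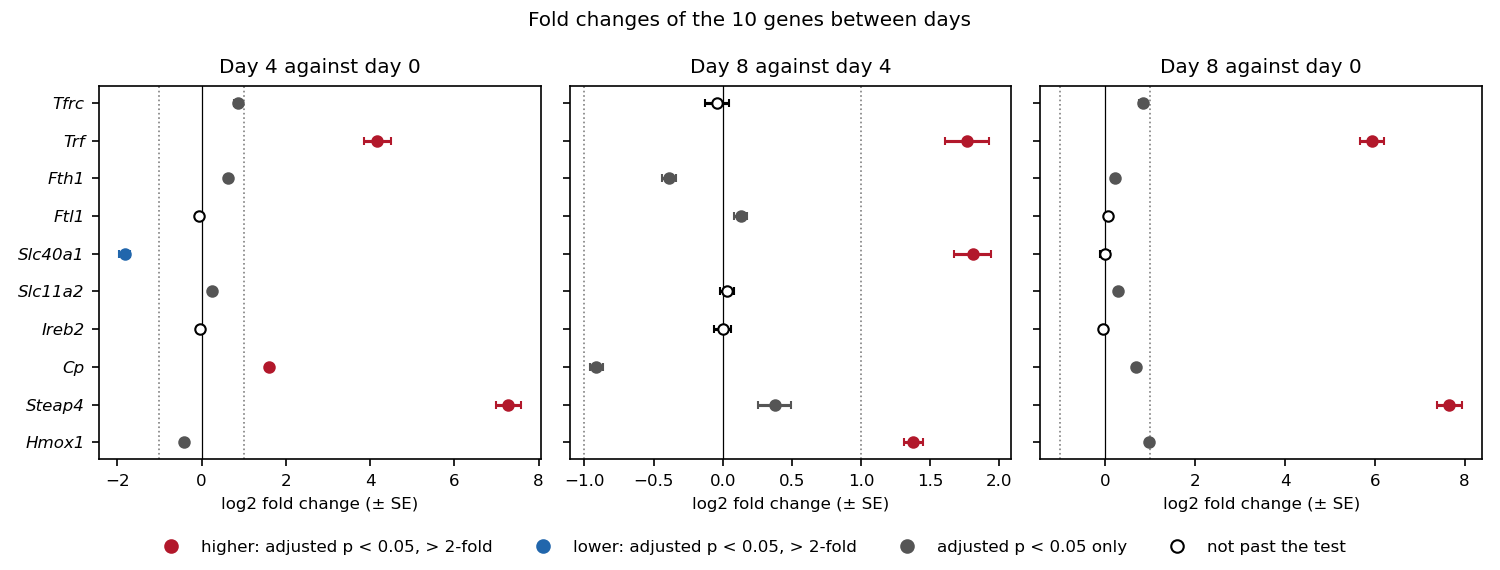
Log2 fold change with its standard error for each member in the 3 comparisons, on separate horizontal scales, with dotted lines at a 2-fold change. In these edgeR values Steap4 and Trf, with few counts at day 0, have the largest changes from day 0. With limma on log2(FPKM + 1), the early change of Trf (1.166) is smaller than those of Cp (1.438) and Slc40a1 (-1.509). Slc40a1 lies below 0 early, above 0 late and near 0 over the whole process.

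On the uptake side, Steap4 and Trf went from the edge of detection to clear expression. Steap4 encodes a metalloreductase of the plasma membrane and endosomes that was first described in adipose cells. It was not listed in day 0 replicate 1 and had 0.02 and 0.06 FPKM in replicates 2 and 3, from 5 counts in all. At day 4 the replicates had 4.16, 4.15 and 4.57 FPKM, and at day 8 they had 4.89, 5.08 and 6.21 FPKM. All later samples thus lay far above day 0, and all day 8 samples above all day 4 samples. The early log2 fold change was 7.28 (standard error, SE, 0.29, edgeR adjusted p = 2.5e-12). Steap4 passed the filter only through its later stages, so this adjusted p is no support for the rise. Because so few counts stood at day 0, its size is better given by the ratio of summed counts, which was 168 with a 95% interval of 71.6 to 518 (exact, counting error only). The log2 fold change was 8.77 without day 0 replicate 3, which held 4 of the 5 counts, 6.71 without day 0 replicate 1, and 2.37 with limma on log2(FPKM + 1). In the late phase Steap4 rose by a further log2 fold change of 0.38 (SE 0.12, edgeR adjusted p = 0.019).

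Trf, the gene of the plasma iron carrier, which is best known as a liver product, had 0.1, 0.05 and 0.08 FPKM in the 3 day 0 replicates, from 2 to 5 counts each. It had 1.32, 1.45 and 1.48 FPKM at day 4 and 3.66, 5.05 and 5.3 FPKM at day 8. The groups did not overlap at any step, and replicate 1 was the lowest of day 8. The log2 fold change was 4.17 early (SE 0.32, edgeR adjusted p = 7.9e-09) and 1.77 late (SE 0.16, edgeR adjusted p = 1.6e-07). Trf passed the filter only through its later stages, so its early adjusted p is no support for the rise. With limma these were 1.17 and 1.22 on log2(FPKM + 1), and 3.11 and 1.64 on log2(FPKM + 0.1). Summed counts gave ratios of 18.6 early (95% interval 10.2 to 37.9) and 3.4 late (2.9 to 4.01). Its annotated exons overlap those of Gm20425 on the same strand, and 79.8% of its 50-base stretches occur in that gene, which was not analysed here, so reads from that share of Trf cannot be assigned to one gene of the pair.

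Tfrc, the receptor for transferrin, had 5.39, 6.28 and 4.98 FPKM at day 0, 8.61, 9.62 and 10.75 on day 4 and 8.43, 9.27 and 9.63 on day 8. Every later sample exceeded every day 0 sample, while day 4 and day 8 overlapped. Its log2 fold change of 0.87 early (SE 0.09, edgeR adjusted p = 3.1e-07) and 0.83 over the whole process (SE 0.09, edgeR adjusted p = 5.2e-07) stayed under the 2-fold threshold. The late log2 fold change was -0.039 (SE 0.087, edgeR adjusted p = 0.743). The ratio of Trf to Tfrc within a sample, on FPKM, was 0.0142 ± 0.00554 before induction, 0.147 ± 0.00838 on day 4 and 0.51 ± 0.0655 on day 8. At day 8 the FPKM of Tfrc was 1.82 to 2.3 times that of Trf in the 3 replicates, a ratio that carries the uncertainty of the Trf values given above.

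Slc11a2, which moves ferrous iron out of endosomes, varied little, between 16.92 and 18.15 FPKM at day 0, 19.17 and 20.85 at day 4 and 19.32 and 20.26 at day 8. It rose early by 0.24 on the log2 scale (SE 0.05, edgeR adjusted p = 5.2e-04). Its late log2 fold change was 0.032 (SE 0.051, edgeR adjusted p = 0.636). Exons of Slc11a2 share 94 bases with Gm5475 on the opposite strand, and whether strand was kept is not stated in the sources used here.

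In storage, the heavy and the light chain of ferritin went separate ways at day 4. Fth1, whose protein carries the ferroxidase activity of the shell, had 3909, 3806 and 4121 FPKM at day 0, 5865, 5911 and 5542 on day 4 and 4427, 4161 and 4217 on day 8. The day 4 samples stood above all others, and those of day 8 slightly above those of day 0. The log2 fold changes were 0.62 early (SE 0.05, edgeR adjusted p = 1.9e-08), -0.39 late (SE 0.05, edgeR adjusted p = 1.2e-05) and 0.22 over the whole process (SE 0.05, edgeR adjusted p = 9.1e-04). With the largest counts of the group, between 63801 and 111042 per sample, these changes of less than 2-fold were resolved from the replicate spread.

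Ftl1, whose protein favours mineralization of the iron core, had 3019, 3032 and 3087 FPKM at day 0, 2770, 2828 and 2750 on day 4 and 3045, 2841 and 2975 on day 8. The FPKM values of day 4 lay below those of both other stages. The early log2 fold change of the scaled counts was -0.063 (SE 0.046, edgeR adjusted p = 0.229), and the late one was 0.13 (SE 0.05, edgeR adjusted p = 0.0286). Over the whole process it was 0.068 (SE 0.046, edgeR adjusted p = 0.197), a sign that turned to -0.044 when libraries were scaled by their totals alone. The early adjusted p was under 0.05 with upper-quartile (log2 fold change -0.112, adjusted p = 0.0432) and total-count scaling (-0.129, adjusted p = 0.017) in edgeR, and with limma on FPKM (-0.13, adjusted p = 0.0436 and 0.0451). Values of Ftl1 are uncertain, since 78.9% of its 50-base stretches also occur in transcripts of 15 other genes, most often in the pseudogene Ftl1-ps1. For Fth1 the share was 4%.

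The ratio of Fth1 to Ftl1 within a sample was 1.29, 1.25 and 1.33 in the day 0 replicates, 2.12, 2.09 and 2.02 at day 4 and 1.45, 1.47 and 1.42 at day 8. The ratio was higher in each day 4 sample than in any other, and it carries the uncertainty of the Ftl1 values given above. The receptor was scarce beside the store at all stages. The sum of both ferritin genes was 1274 ± 180 times the FPKM of Tfrc before induction, 894 ± 116 times on day 4 and 796 ± 78.1 times on day 8. The later stages overlapped with each other and lay below day 0.

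**Figure D3:**
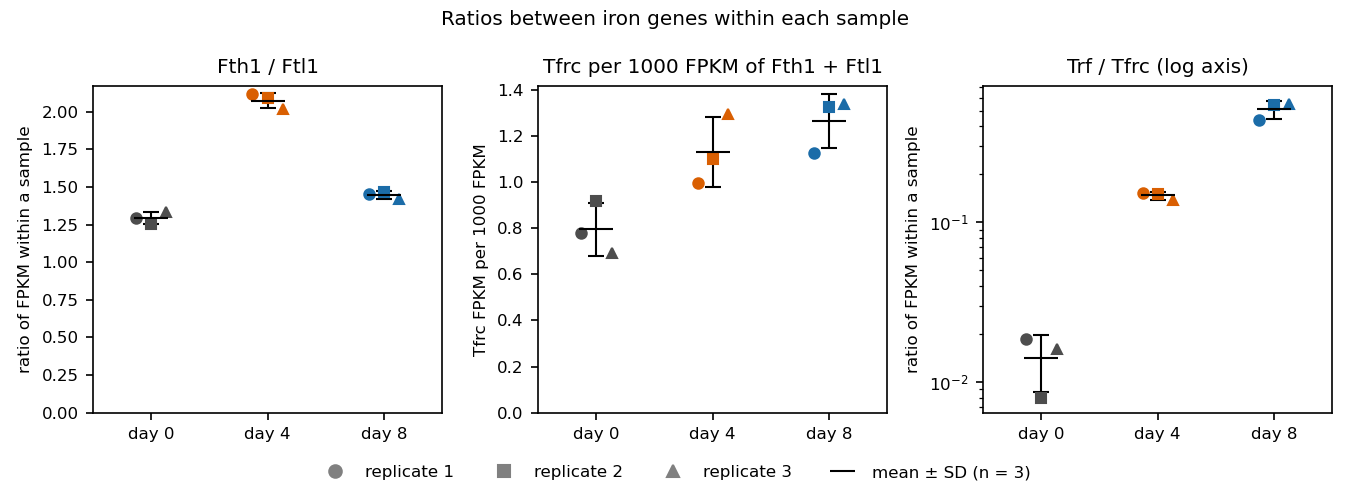
Ratios of FPKM within each sample by day, with replicates as symbols and bars for the mean ± SD (n = 3), the right panel on a log axis. The ratio of Fth1 to Ftl1 peaks at day 4, that of Tfrc to ferritin (scaled up in the panel) is higher at both later stages than at day 0, and that of Trf to Tfrc climbs at each stage.

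On the export side, ferroportin and ceruloplasmin moved in opposite directions at day 4. Slc40a1, the gene of ferroportin, the cell's iron exporter, had 8.81, 6.59 and 8.66 FPKM at day 0, 2.71, 1.89 and 1.91 at day 4 and 7.58, 6.96 and 7.6 at day 8. Day 4 stood below both other stages without overlap, while day 0 and day 8 overlapped. The log2 fold change was -1.82 early (SE 0.13, edgeR adjusted p = 3.9e-09) and 1.81 late (SE 0.13, edgeR adjusted p = 1.9e-08). Over the whole process it was -0.013 (SE 0.114, edgeR adjusted p = 0.925). Cp, which oxidizes ferrous iron as it leaves the cell, had 9.98, 9.84 and 9.97 FPKM at day 0, 29.7, 27.4 and 28.9 at day 4 and 14.5, 15.4 and 14.9 at day 8. No sample of one stage overlapped with another stage. Cp rose early by 1.59 on the log2 scale (SE 0.05, edgeR adjusted p = 1.0e-13) and fell late by 0.91 on the log2 scale (SE 0.05, edgeR adjusted p = 3.0e-10), just short of a 2-fold fall. It stayed 1.6-fold above day 0 at day 8 (edgeR adjusted p = 5.1e-09). Exons of Cp share 108 bases with Hps3 on the opposite strand, and the sources used here do not state whether strand was kept.

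Of the regulators, Ireb2 gave no call and no adjusted p under 0.05. It had 13 to 14.34 FPKM in preadipocytes, 11.65 to 13.9 on day 4 and 12.05 to 12.32 on day 8, so that the FPKM of day 8 lay below that of day 0. Its log2 fold change was -0.048 early, -0.001 late and -0.049 over the whole process, with a standard error of 0.059 in each.

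Hmox1, the inducible heme oxygenase, dipped and then climbed. It had 188.7, 180.9 and 184.1 FPKM at day 0, 140.8, 132.0 and 124.5 on day 4 and 305.9, 327.5 and 367.8 on day 8. The stages did not overlap. The early log2 fold change was -0.41 (SE 0.07, edgeR adjusted p = 4.7e-05), and the late one 1.38 (SE 0.07, edgeR adjusted p = 1.6e-10), a 2.6-fold rise. Over the whole process Hmox1 rose 1.96-fold (log2 fold change 0.97, standard error 0.07, edgeR adjusted p = 1.9e-09), just under the threshold. Without day 8 replicate 1, its lowest sample of that stage, the log2 fold change was 1.035 and Hmox1 was called.

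The cells were checked against marker genes. All 8 adipocyte markers were called higher in the early phase, beside 9.77% of all tested genes. This is a description, since only 3 of the 8 reached 1 FPKM in each preadipocyte sample. The summed level of all 8 was 27.8 to 30.6 FPKM before induction, 4800 to 7010 on day 4 and 7228 to 7759 on day 8, with Fabp4 the most abundant. Of 6 preadipocyte markers, 2 (Dlk1 and Ly6a) were called lower early and 1 (Dlk1) higher late, beside 7.98% and 4.24% of all tested genes. By the edgeR adjusted p alone, 5 of the 6 were lower early and 1, Pdgfra, was higher, beside 33.7% and 35.5% of all tested genes. Pdgfra went from 59.6 ± 2.66 to 102 ± 6.14 FPKM (log2 fold change 0.84, edgeR adjusted p = 4.3e-10). The falls below 2-fold were those of Pdgfrb (log2 fold change -0.61), Thy1 (-0.44) and Cd34 (-0.69, edgeR adjusted p = 0.0497). The summed level, of which Dlk1 is the largest part on average, was 1318 to 1398 FPKM before induction, 506 to 556 on day 4 and 809 to 826 on day 8. In bulk samples, fewer cells of a type and less RNA per cell cannot be told apart. The adipocyte sum differed between the day 4 replicates (4800, 5854 and 7010 FPKM), in the same order as Tfrc and Trf and in the reverse order of Hmox1, and the part of this in the values was not tested. All 9 markers of proliferating cells were lower at day 4 by the adjusted p of edgeR and 2 were called, beside 33.7% and 7.98% of all tested genes. Their sums were 199 to 265 FPKM before induction, 128 to 138 on day 4 and 142 to 155 on day 8. Day 0 replicate 2 had the highest of these sums and also the highest Tfrc and the lowest Slc40a1 of day 0, and their relation was not tested.

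Genes of this group are known from macrophages, liver and red cell precursors, so markers of these were read as well. The 8 macrophage markers summed to 5.07 to 9.0 FPKM with Cd14 the most abundant on average. The defining genes Adgre1, Ptprc and Itgam averaged at most 0.0167 FPKM at any stage. Cd14 averaged 2.7 to 4.48 FPKM and Cd68 1.3 to 1.49. Lyz2 had 1.8 ± 0.535 FPKM at day 0, 0.4 ± 0.08 at day 4 and 0.93 ± 0.13 at day 8. It was called lower early (log2 fold change -2.10, edgeR adjusted p = 2.1e-05) and higher late (1.25, edgeR adjusted p = 0.00934). Slc40a1 and Hmox1 likewise fell early and rose late. Early, 2 of the 4 tested macrophage markers (Cd14 and Lyz2) were lower by the edgeR adjusted p alone and 0 higher, beside 33.7% and 35.5% of all tested genes. Late, 1 of the 4 (Lyz2) was higher and 0 lower, beside 22.5% and 22.7%, so the list did not share the course of Lyz2. Cd14 had a late log2 fold change of -0.167 (edgeR adjusted p = 0.376), and Csf1r an early one of 0.755 (edgeR adjusted p = 0.0503). The part of such cells in the levels of the members was not tested. Liver markers summed to at most 0.3 FPKM in any sample and Alb stayed at or below 0.0467 FPKM on average. Endothelial markers summed to at most 1.15 FPKM. Of 7 erythroid markers 4 were listed, with sums of 3.32 to 6.0 FPKM. Epor, the erythropoietin receptor, was the most abundant on average. It had 2.38 ± 0.108 FPKM at day 0, 3.45 ± 0.708 at day 4 and 5.03 ± 0.262 at day 8. Epor was called higher over the whole process (log2 fold change 1.19, edgeR adjusted p = 1.3e-06). Hba-a1 was called lower early (log2 fold change -2.29, edgeR adjusted p = 3.6e-04). Trf also rose at each step, and the relation of these markers to the members was not tested. The extraction text in the labels names dorsal root ganglia, a nerve tissue. Its 7 markers summed to 0.8 to 2.39 FPKM, and Scn10a averaged at most 0.00333 FPKM.

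Other genes of iron and heme handling were read from 9 lists with 85 genes, of which 72 were tested. In the early phase 18 of the 72 were called higher (25.0%) and 4 lower (5.56%), beside 9.77% and 7.98% of all tested genes. In the late phase 1 was called higher (1.39%) and 3 lower (4.17%), beside 4.24% and 2.81%. Over the whole process 16 were higher (22.2%) and 4 lower (5.56%), beside 10.3% and 7.7%. With at least 10 counts in every sample, 3 of the 72 (Hp, Hpx and Tmprss6) were not tested. Of the 69 left, 15 were called higher and 3 lower early, and 14 and 4 over the whole process. Of all 11799 genes tested with that filter, 831 were called higher and 754 lower early, and 913 and 682 over the whole process. A gene that passed the filter mainly through the stages where it is high had to differ, so these counts and medians are a description. Counts by the adjusted p alone stand beside 35.5% of all tested genes higher and 33.7% lower early, and 22.5% and 22.7% late. The median log2 fold change of the 72 genes was 0.153 early, 0.00715 late and 0.284 over the whole process.

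**Figure D4:**
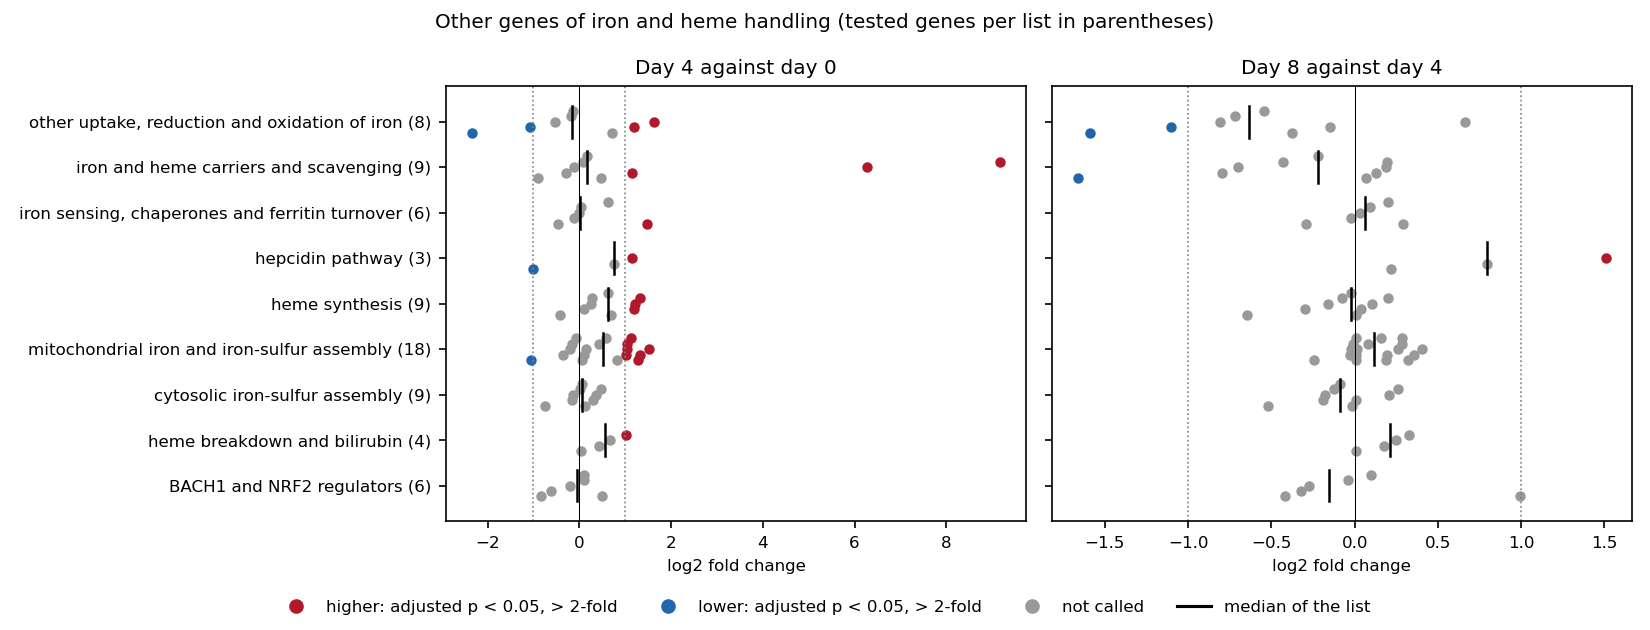
Log2 fold change of each tested gene in 9 lists of iron and heme genes for the early and the late phase, on separate horizontal scales, with a black bar for the median of each list and colour for called genes. Early, 18 genes are called higher, 7 of them in mitochondrial iron-sulfur assembly, and 4 lower, and in the late phase 1 gene is called higher and 3 lower.

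Other reductases and importers split. Of 8 tested genes, 2 were called higher and 2 lower early. The reductase genes Steap1 and Steap2 fell, with log2 fold changes of -2.33 and -1.07 (edgeR adjusted p = 1.2e-12 and 6.6e-11), and the call of Steap2 was lost with glmTreat. Steap1 went from 29.6 ± 2.83 to 5.6 ± 0.187 FPKM, while its relative Steap4 rose. Steap3, the endosomal ferrireductase of red cell precursors, had 110.4 ± 2.84 FPKM at day 0, 72.8 ± 3.76 at day 4 and 111.7 ± 1.46 at day 8, so it remained the most abundant STEAP gene throughout. The 2 genes called higher, both importers outside the transferrin route, were called lower late. Slc39a14, a transporter of iron and zinc (ZIP14), had 10.4 ± 0.585 FPKM at day 0, 22.6 ± 1.63 at day 4 and 7.27 ± 0.287 at day 8 (log2 fold change 1.19 early and -1.59 late). Scara5, a scavenger receptor that binds ferritin, had 45.4 ± 4.16, 134 ± 5.91 and 60.6 ± 1.3 FPKM (log2 fold change 1.63 early and -1.10 late), and its late call was lost with glmTreat. Heph, a membrane-bound relative of Cp, rose by a log2 fold change of 0.72 early and fell by 0.55 on the log2 scale late, less than 2-fold each time. The edgeR adjusted p was at most 4.6e-07 for each of these changes of Slc39a14, Scara5 and Heph. Tfr2, Cybrd1 and Hephl1 were below the filter.

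Of 9 tested genes for carriers and scavengers, 3 were called higher early (1, Lcn2, with at least 10 counts in every sample) and 0 lower, with 2 lower by the edgeR adjusted p alone. Hp, which encodes haptoglobin, the binder of free hemoglobin, rose from 0.323 ± 0.0666 FPKM at day 0 to 182 ± 32.1 at day 4 and fell to 55.8 ± 3.03 at day 8, with log2 fold changes of 9.17 and -1.66 (edgeR adjusted p = 8.1e-16 and 7.7e-10). It had 26 counts in all at day 0 and entered the test through its later stages, so its early adjusted p is no support for the rise. The early size is better given by the ratio of summed counts, 585 with a 95% interval of 399 to 896 (exact, counting error only). Lcn2, whose protein binds iron-laden siderophores, had 1.39 ± 0.244, 104 ± 2.78 and 58.0 ± 7.62 FPKM, with a log2 fold change of 6.27 early (edgeR adjusted p = 1.3e-15). Hpx, for the heme binder hemopexin, was called higher early but stayed under 1 FPKM on average at each stage, and its call was lost with glmTreat, with limma and without day 0 replicate 2 (0.997). Lrp1, a receptor for the hemopexin-heme complex among many ligands, fell early from 148 ± 12.98 to 75.7 ± 10.8 FPKM (edgeR adjusted p = 1.2e-07) and was called without day 4 replicate 1 (log2 fold change -1.003). The heme exporter gene Mfsd7b (Flvcr1) fell late by 0.70 on the log2 scale (edgeR adjusted p = 1.9e-04).

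Among iron sensors and ferritin turnover, Aco1 was the 1 called gene of 6. It encodes IRP1, which is a cytosolic aconitase when iron is plentiful and binds IREs when it is not. Aco1 rose from 19.0 ± 0.229 FPKM at day 0 to 50.3 ± 4.49 at day 4 and 56.0 ± 1.14 at day 8, a log2 fold change of 1.47 early (SE 0.06, edgeR adjusted p = 2.5e-12), whereas Ireb2, for the other regulatory protein, gave no call. On FPKM, Aco1 stood above Ireb2 at each stage. Ncoa4, the receptor that delivers ferritin to lysosomes, rose early by a log2 fold change of 0.62 (edgeR adjusted p = 1.1e-08). Fbxl5, which marks IRP2 for breakdown, gave log2 fold changes of 0.031 early and 0.032 late with SEs of 0.056.

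Several genes of heme synthesis and of mitochondrial iron-sulfur assembly rose early. Of 9 tested heme synthesis genes, 7 passed the edgeR adjusted p with a rise early, beside 35.5% of all tested genes, and 3 were called higher. Among them were Alas1, the rate-limiting step in most tissues (18.04 ± 1.08 FPKM at day 0 and 40.0 ± 3.31 at day 4), and Alad (11.02 ± 0.665 and 24.0 ± 2.84). Cpox fell early, by 0.41 on the log2 scale (edgeR adjusted p = 1.1e-05). The last enzyme, Fech, which inserts the iron, rose by a log2 fold change of 0.29 early (edgeR adjusted p = 1.4e-04). Late, 0 of the 9 were called, with 1 (Alas1) higher and 2, among them Tmem14c, lower by the edgeR adjusted p alone.

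Of 18 tested genes for mitochondrial iron import and iron-sulfur assembly, 7 were called higher early and 1 lower. Those called higher were the cysteine desulfurase Nfs1, the electron donors Fdx1 and Fdxr, the carriers Glrx5, Isca1 and Isca2, and Iba57, with log2 fold changes from 1.02 for Nfs1 to 1.53 for Fdxr. By the edgeR adjusted p alone, 10 were higher and 2 lower. The gene called lower was Slc25a37, for the iron importer mitoferrin 1, from 8.78 ± 1.09 to 4.05 ± 0.233 FPKM (log2 fold change -1.05, edgeR adjusted p = 5.8e-08), while the edgeR adjusted p of its relative Slc25a28 was 0.358. Hspa9, for a mitochondrial chaperone, fell early by 0.35 on the log2 scale (edgeR adjusted p = 9.7e-06). The 7 higher calls became 4 with upper-quartile or total-count scaling and with limma on log2(FPKM + 0.1), 3 with glmTreat and 2 with limma on log2(FPKM + 1), and Nfs1, Glrx5 and Isca1 lay near the fold threshold. The call of Slc25a37 was lost with glmTreat, with limma on log2(FPKM + 1) and without day 0 replicate 1 (-0.939) or day 4 replicate 3 (-0.999). Bola3 rose by 0.82 on the log2 scale early, under the fold threshold, and was called higher over the whole process (log2 fold change 1.11, edgeR adjusted p = 3.2e-11). That call was lost with total-count scaling (0.999), with glmTreat, and with limma on log2(FPKM + 1) (0.983) and log2(FPKM + 0.1) (0.996). Among the list genes outside the 10 members, Bola3 in its 3′ UTR and Alas2, a heme synthesis gene below the filter, in its 5′ UTR hold a match to the hairpin search. Late, 0 of the 18 were called and 5 were higher and 1 lower by the edgeR adjusted p alone. Of 9 tested genes of the cytosolic assembly machinery, 0 were called in any comparison, with 3 higher and 2 lower early by the edgeR adjusted p alone.

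Near heme oxygenase, Hmox2, the constitutive isozyme, rose early by 0.68 on the log2 scale (edgeR adjusted p = 4.6e-08) from 35.1 ± 1.22 to 53.7 ± 3.6 FPKM. Hmox1 stood above Hmox2 at each stage, and came closest at day 4. Por, the reductase that supplies electrons to heme oxygenase, was called higher early (log2 fold change 1.02, edgeR adjusted p = 3.1e-11), which was lost with upper-quartile (0.969) or total-count scaling (0.952), with glmTreat, with limma and without day 4 replicate 2 (0.98). The biliverdin reductase gene Blvra rose early by a log2 fold change of 0.43 (edgeR adjusted p = 1.5e-04) and late by 0.33 (edgeR adjusted p = 0.00218). Its counterpart Blvrb had log2 fold changes of 0.041 early (edgeR adjusted p = 0.541) and 0.25 late (edgeR adjusted p = 0.00204). Of the 6 regulators, Bach1, a repressor of Hmox1, fell from 15.9 ± 1.18 FPKM at day 0 to 9.99 ± 0.95 at day 4 and 7.76 ± 0.122 at day 8, with edgeR adjusted p = 7.8e-07 early and 0.0017 late. Its log2 fold change over the whole process, -0.93, was under the threshold, and Bach1 was called lower with total-count scaling (-1.038) and with limma on log2(FPKM + 0.1) (-1.026). Nfe2l2, for the activator NRF2, fell early by 0.21 on the log2 scale (edgeR adjusted p = 7.1e-04), and its late edgeR adjusted p was 0.0977. The small MAF partners diverged over the whole process, where Maff was called higher (log2 fold change 1.09, edgeR adjusted p = 4.1e-06) and Mafk lower (log2 fold change -1.11, edgeR adjusted p = 1.1e-09). The call of Maff was lost with total-count scaling (0.98), with limma and glmTreat, and without day 8 replicate 3 (0.95), and that of Mafk with glmTreat.

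The hepcidin pathway, which controls ferroportin in the body, was sparse. Hamp, the gene of hepcidin, was below the filter with at most 0.0867 FPKM on average, as were Hfe2, Bmp6 and Bmp2. Hfe, whose protein binds the transferrin receptor, was called higher late and rose from 1.05 ± 0.0862 FPKM at day 0 to 1.69 ± 0.0306 at day 4 and 4.64 ± 0.88 at day 8 (log2 fold change 1.51 late, edgeR adjusted p = 1.1e-06). Neo1, a receptor for the coreceptor hemojuvelin among others, was called lower early at the edge of the threshold, with a log2 fold change of -1.003 (edgeR adjusted p = 4.3e-10). That call was lost with no filter, with at least 10 counts in every sample, with glmTreat, and without day 0 replicate 1 (-0.994), day 0 replicate 3 (-0.997) or day 4 replicate 3 (-0.936). Tmprss6, for a protease that restrains hepcidin, was called higher early (log2 fold change 1.15, edgeR adjusted p = 0.0128) at no more than 0.417 FPKM on average at any stage. It was not called with glmTreat, with limma or without day 0 replicate 1 (0.913).

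The genes whose course over the 9 samples was most like that of each member were found by the root mean square difference of log2 CPM, centred on each gene's mean, among 11467 genes. For Hmox1 these were Slc2a1, the glucose transporter GLUT1 (difference 0.082), and Kcnma1 (0.094). For Slc40a1 they were Sfrp2, a secreted Wnt modulator (0.165), and Gadd45a, a stress gene (0.174). For Cp they were Stim1, the calcium sensor of store-operated entry (0.069), and Sesn1 (0.077), and for Tfrc Cebpg (0.069) and Dlat, a subunit of pyruvate dehydrogenase (0.072). Slc2a1 had 65.4 FPKM on average at day 0, 42.6 on day 4 and 112 on day 8, the same dip and rise as Hmox1. Trf was nearest to Siglec1 (0.213), a sialic acid receptor known from macrophages, which had 0.18, 2.59 and 6.06 FPKM on average. The second was 3930402G23Rik (0.226). Steap4 was nearest to Nat8l (0.278), an acetylaspartate synthase, and Arxes1 (0.311), which is known from adipocytes. For the members that moved little the differences were smaller, with Ankrd13b (0.047) and Zeb1 (0.048) for Fth1, Bgn and Ttc17 (0.033 each) for Ftl1, Tom1l2 (0.024) and Vps26b (0.029) for Slc11a2, and Bzw1 (0.034) and Mrto4 (0.039) for Ireb2. Likeness over 3 stages is a description of these samples.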

How the data were processed

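RNA-seq data of 9 samples were used, 3 each from day 0, day 4 and day 8, grouped by their titles. Per the study's methods, the authors removed poor reads, mapped the rest with HISAT/Bowtie2 and quantified genes with RSEM; the submitters' processing notes also name CASAVA 1.4. The genome build is not given in the sources used here, and the labels name a library kit of another platform than the paper. The deposited expected counts are RSEM estimates without normalization, and 29.8% of those above 0 are not whole. In the FPKM columns the authors had scaled those counts to gene length and depth. The files also list a gene length, which was read as such.

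Expected counts were rounded and analysed with edgeR 4.0.16 in R 4.3.3 (filterByExpr by day, TMM factors between 0.954 and 1.05, glmQLFit and glmQLFTest, all 9 samples, 1 coefficient per day). The study's methods describe NOIseq, PossionDis and an exact test with moderated dispersions, of which edgeR's exact test served as an alternative. Standard errors are the log2 fold change divided by the square root of F. P-values were adjusted over 13154 genes by the Benjamini-Hochberg method. CPM were computed on TMM-scaled library sizes (log2 CPM with 2 added as prior count). Genes without a listed value were taken as 0. Depth was 18216114 to 20452144 expected counts. Intervals of summed-count ratios are exact (Clopper-Pearson, 95%) and cover counting error only, since amplified reads are not independent molecules.

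The members and the gene lists were chosen with earlier results of these data known. The text names all 10 members, members of the lists, and for each member the 2 genes with the smallest root mean square difference of centred log2 CPM, where the average log2 CPM reached 1 or more. Hairpins and 50-base stretches were searched in GENCODE vM21 transcripts (GRCm38). Replicates differed by more than sampling noise, with a chi-square per gene of 2.4 to 10.7, and none were merged. Alternatives were RLE, upper-quartile and total-count scaling, DESeq2 1.42.0 (Wald test), glmTreat and the exact test in edgeR, limma 3.58.1 on log2(FPKM + 1) and log2(FPKM + 0.1), no filter, at least 10 counts in every sample, no fold threshold, fits of the 2 days compared, a replicate block and leaving out each sample. The steps were tested on simulated data. Quantitative PCR and tissue data were not analysed here. Some members of the lists are counted but not reported by name here.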

Additional observations from a re-analysis of the deposited data

How the results depend on the processing

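The counts of called members changed with the call rule and the filter. Without the fold threshold, 8 members were called early (6 higher and 2 lower), 7 late (5 higher and 2 lower) and 7 over the whole process (7 higher). With at least 10 counts in every sample, Trf and Steap4 were not tested, which left 2 called early (1 higher) and 0 over the whole process (0 higher). No direction could be read for members near 0. The late log2 fold change of Tfrc ran from -0.115 to 0.04 as single samples were left out, and was above 0 without day 4 replicate 3 or day 8 replicate 1 (0.022). That of Slc11a2 became -0.013 with total-count scaling, -0.003 and -0.004 with limma on log2(FPKM + 1) and log2(FPKM + 0.1), and ran from -0.001 (without day 4 replicate 3) to 0.086 over the fits without single samples. That of Ireb2 became 0.018 with RLE factors and with DESeq2, 0.002 with no filter and with at least 10 counts, 0.001 with the replicate block, and ran from -0.023 to 0.07 without single samples. Over the whole process, Ftl1 became -0.044 with total-count scaling and -0.045 with limma at both pseudocounts, and Slc40a1 0.002 with RLE factors, 0.004 with DESeq2 and from -0.137 to 0.061 without single samples. Total-count scaling moved the median of all genes over the whole process to -0.129. Whether replicate numbers pair the samples was not settled. Deviations of same-numbered samples correlated between -0.0348 and 0.075 in 9 pairs, with a mean of 0.0308, beside a mean of -0.0154 for pairs of unlike number. Of the 9 samples, 6 correlated best with their own number, so a weak pairing may be present. With the replicate block, 1287 genes were called higher and 1053 lower early. Counts of all called genes, higher and lower together, were lowest with limma on log2(FPKM + 1), at 708 and 565 early, 224 and 136 late, and 753 and 528 over the whole process, and highest by the adjusted p alone, at 4676 and 4430, 2964 and 2989, and 4583 and 4756. With glmTreat they were 936 and 664 early and 248 and 129 late, and with at least 10 counts in every sample 831 and 754 early, 310 and 173 late, and 913 and 682 over the whole process. Over the 9 lists, the 18 early higher calls became 14 with upper-quartile and with total-count scaling, 15 with at least 10 counts in every sample, 11 with glmTreat and 10 with limma on log2(FPKM + 1), and the 4 lower calls became 3 with at least 10 counts, 1 with glmTreat and 2 without day 0 replicate 1 or day 4 replicate 3. Calls of some list genes near the fold threshold changed with scaling, test, filter and single samples. Among the members, low counts limit Trf and Steap4 at day 0.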
